A study of Mus musculus with 32 samples.

Results

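Complement and coagulation factors were followed as a set of 41 mouse genes, named one by one: 24 of the complement system (C1qa, C1qb, C1qc, C1ra, C1s, C2, C4b, Masp1, Masp2, Mbl1, Mbl2, C3, Cfb, Cfp, Cfi, C4bp, Vtn, Hc, C6, C7, C8a, C8b, C8g and C9) and 17 of coagulation and its control (F2, F5, F7, F9, F10, F11, F12, F13a1, F13b, Klkb1, Kng1, Serpinc1, Serpind1, Proc, Pros1, Plg and Serpinf2). The array carried probes for 41 of them among 34836 gene names, and 40 of them were tested among 21730 genes. C7, a subunit of the terminal complex, was not tested, because its brighter probe was well above background on at most 3 of 4 livers of any group. Livers came from male C57/BL6 mice, with 4 livers in each of 8 groups, and the design crossed diet, drug and surgery. At baseline the groups were a standard diet, a methionine- and choline-deficient (MCD) diet, a model of fatty liver disease, fed for 3 weeks, a standard diet with a dual agonist of the glucagon-like peptide 1 and glucagon receptors (GLP1R/GCGR), and the MCD diet with that agonist. The agonist was given for 2 weeks at 4.4 mg/kg/day every 2 days, on the MCD diet from the end of its first week. The other 4 groups had the same diets and treatments, underwent a 70% partial hepatectomy, continued the same regimen and were sampled 2 weeks after surgery. Every sample was a separate liver per the labels; age was not among the labels used here.

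Complement and coagulation are protease cascades of the blood plasma, and hepatocytes secrete most of their soluble components. Complement starts through C1 (classical pathway), through mannose-binding lectins (lectin pathway) or by amplification of C3 with factor B and properdin (alternative pathway), and all routes converge on C3 and then on C5 to C9, which assemble into a pore in the target membrane. Coagulation runs from tissue factor and factor VII, or from the contact proteases, through factor X to thrombin, which turns fibrinogen into fibrin; antithrombin, heparin cofactor II and the protein C and protein S pair restrain it, and plasmin dissolves the clot. Some members have their main source elsewhere: macrophages make the 3 chains of C1q, and leukocytes make properdin and the A subunit of factor XIII.

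Each value below is the log2 signal of a probe minus the 75th percentile of its array, so 0 stands for that percentile, and levels are compared between groups for the same probe only. A gene was called up or down in a comparison when its adjusted p was under 0.05 over all 21730 genes tested (limma, 1 fit over the 32 arrays). Between 44.4% and 69.7% of spots were well above background per array, which limits what can be seen of dim genes. The standard-diet and MCD groups shared slide 1, their agonist-treated counterparts slide 2, the 2 standard-diet groups after hepatectomy slide 3 and the 2 MCD groups after hepatectomy slide 4, each group filling 1 row of its slide. The diet comparisons at baseline and the agonist comparisons after hepatectomy therefore ran within a slide, with row and group not separable; in the remaining pairwise comparisons slide and group cannot be told apart, and for hepatectomy neither can the 2 scanners, since slides 1 and 2 were read on scanner 1 and slides 3 and 4 on scanner 2. In whole liver, fewer cells of a type and less RNA per cell cannot be told apart.

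The labels were checked before the members were read. Hepatocyte markers averaged 8.07 to 8.84 over the 8 groups, with albumin at 9.46 or higher in each liver. The stearoyl-CoA desaturase Scd1, a lipogenic enzyme known to be suppressed by MCD feeding, lay between 1.62 and 6.09 in the livers labelled MCD and between 6.70 and 9.10 in those labelled standard diet (1 standard-diet liver with agonist had no retained spot), without overlap. The submitters' own table of processed values disagreed: of its 32 columns, 16 matched best an array of another group, the MCD diet and the standard diet with agonist being exchanged both before and after hepatectomy. Groups here follow the labels of the scanner files. Were the columns of that table right instead, diet and agonist comparisons would trade places. Hepatectomy on the MCD diet without agonist would likewise trade places with hepatectomy on the standard diet with agonist. Taken as deposited, the table gave 1 and 6 members called for diet at baseline and 0 and 0 after hepatectomy. For the agonist it gave 14 and 8 at baseline and 10 and 14 after hepatectomy. Among all 32 arrays, liver 1 of the standard diet after hepatectomy correlated least with its group (mean r = 0.949).

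**Figure D1:**
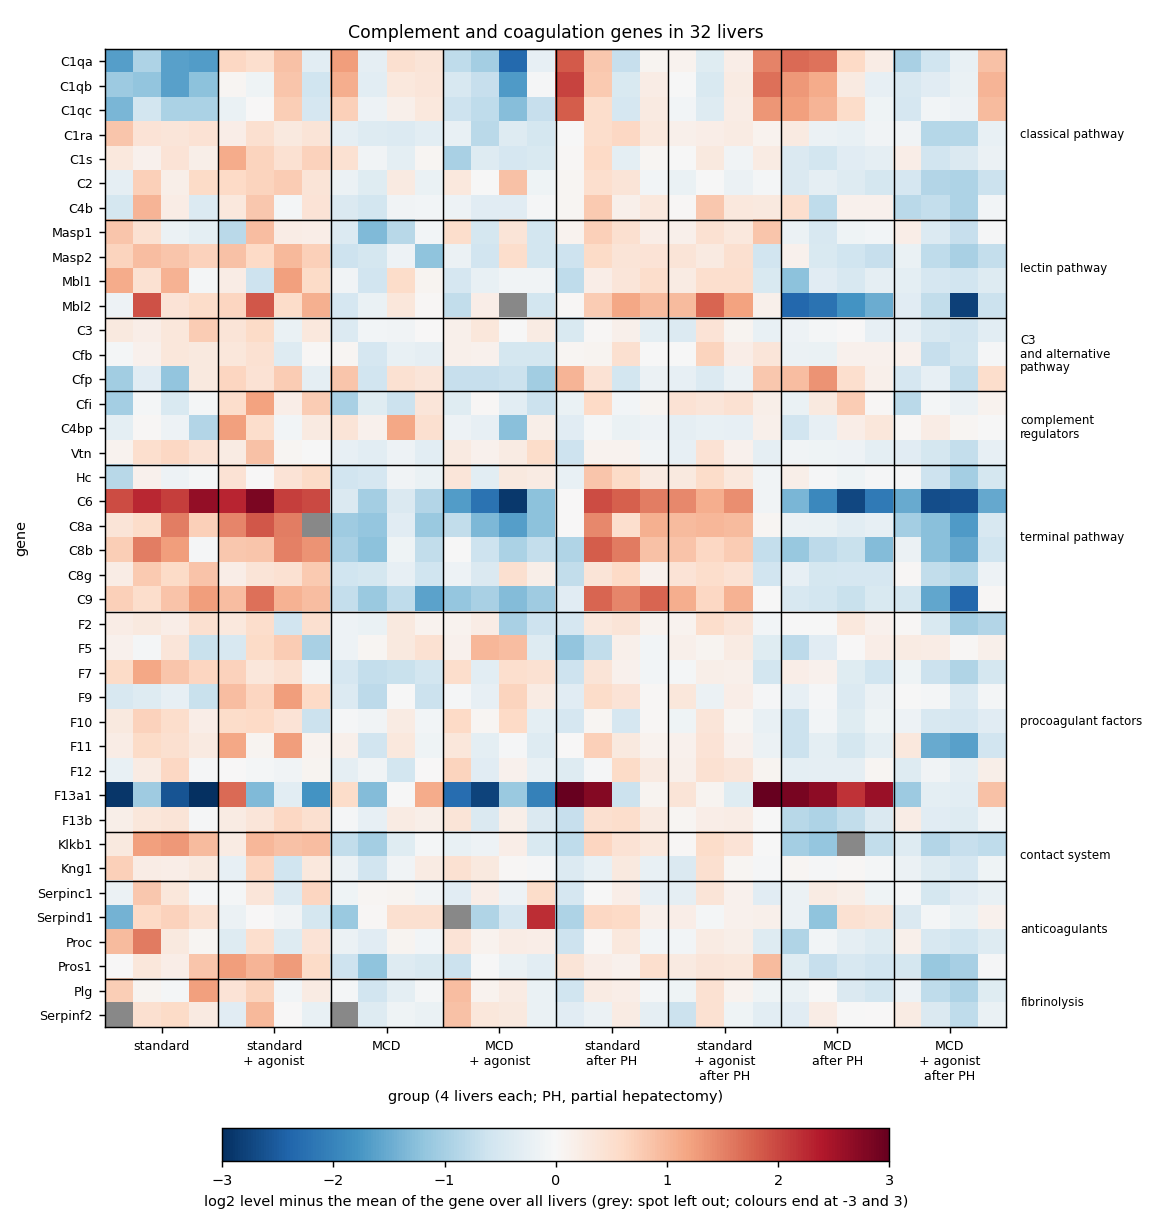
Heat map of the 40 tested genes (rows, by role) in 32 livers (columns, 4 per group); colour is the log2 level of a liver minus the mean of that gene over all livers, from -3 (blue) to 3 (red), and grey marks a spot left out. C6, C8a, C8b and C9 are mostly blue in the 4 MCD groups, and the C1q chains and F13a1 are lowest in the standard-diet group at baseline.

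The MCD diet went with lower transcript levels of many of these genes, in each of the 4 settings in which it could be compared. At baseline without agonist 15 of 40 members fell and 5 rose, beside 15% of all genes falling and 10.8% rising. With agonist at baseline 14 fell and none rose, beside 6.97% falling and 8.18% rising among all genes. After hepatectomy 8 fell and none rose without agonist (5.83% of all genes down, 5.62% up), and 9 fell and none rose with it (3.91% down, 4.39% up). The median log2 change of the 40 members was -0.44, -0.58, -0.31 and -0.59 in that order, and that of all genes -0.127, 0.0305, -0.0278 and -0.00138. These 4 comparisons share no livers. C6, C8a, C9, Klkb1 and Pros1 fell in all 4, which is 12.5% of the members tested and 0.681% of all genes tested (148 genes), and C1ra and C8b fell in 3. For C8a the call after hepatectomy without agonist was kept in 3 of 9 alternative settings. Single livers moved these counts: 9 were called with agonist at baseline without standard-diet liver 2, 5 after hepatectomy without liver 2 of either diet, and 5 with agonist after hepatectomy without liver 2 or 3 of either diet.

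**Figure D2:**
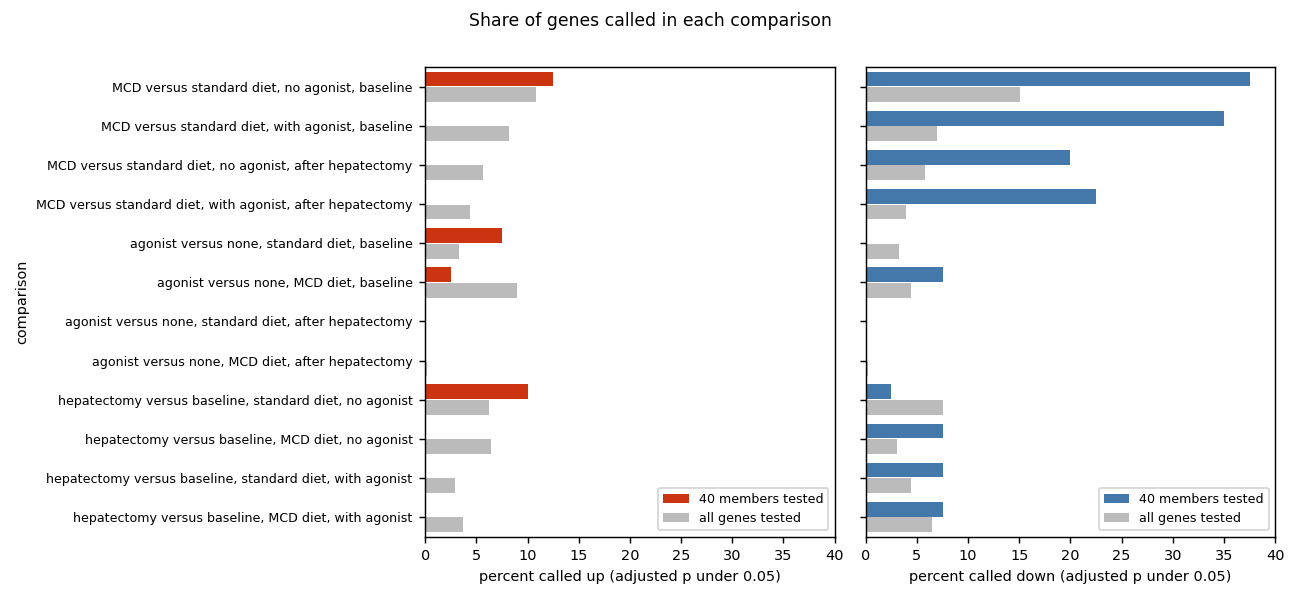
Bars give the percent of the 40 members (coloured) and of all 21730 genes tested (grey) called up (left panel) or down (right panel) in each of 12 pairwise comparisons. The members' share called down exceeds that of all genes in the 4 diet comparisons, 37.5% against 15% in the first.

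The size of the baseline shift depended on the processing of the arrays. Centring each array on its median in place of its 75th percentile moved the median of all genes in the baseline diet comparison from -0.13 to 0.24, and 13 members were then called, 6 up and 7 down, beside 4493 genes up and 1187 down. C6, C8a, C8b, C9, Klkb1, Masp2 and F7 stayed called lower under that centring; C1ra, Masp1, C3, Vtn, C8g, Proc, Pros1 and Plg no longer passed. With normexp background correction 6 members were called up and 12 down, beside 2272 genes up and 5986 down of 21730. The excess of falls among the members over all genes was small there. In the main processing, leaving out MCD liver 1 gave 13 calls, 2 up and 11 down. Beside the falls at baseline, hepatocyte markers averaged 8.17 to 8.38 in MCD livers and 8.60 to 9.14 in standard-diet livers. Of these markers 2 of 9 were called lower there. With agonist at baseline and after hepatectomy 0 of 9 were called. The hepatocyte marker means on the standard and MCD diets were 8.765 and 8.608 with agonist at baseline. After hepatectomy they were 8.32 and 8.243 without agonist and 8.431 and 8.071 with it. Markers of other cells moved too: 5 of 10 stellate cell and fibroblast markers rose with the MCD diet at baseline without agonist, and after hepatectomy without agonist 5 of 8 neutrophil markers (median 2.73) and 2 of 5 pancreatic acinar markers rose. After hepatectomy with agonist 4 of 5 acinar markers rose. In the baseline comparison 3 of 12 hepatocyte transcription factors fell, and of 13 sex-biased liver genes 7 fell and 5 rose. The part of these lists in the members' changes was not tested.

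**Figure D3:**
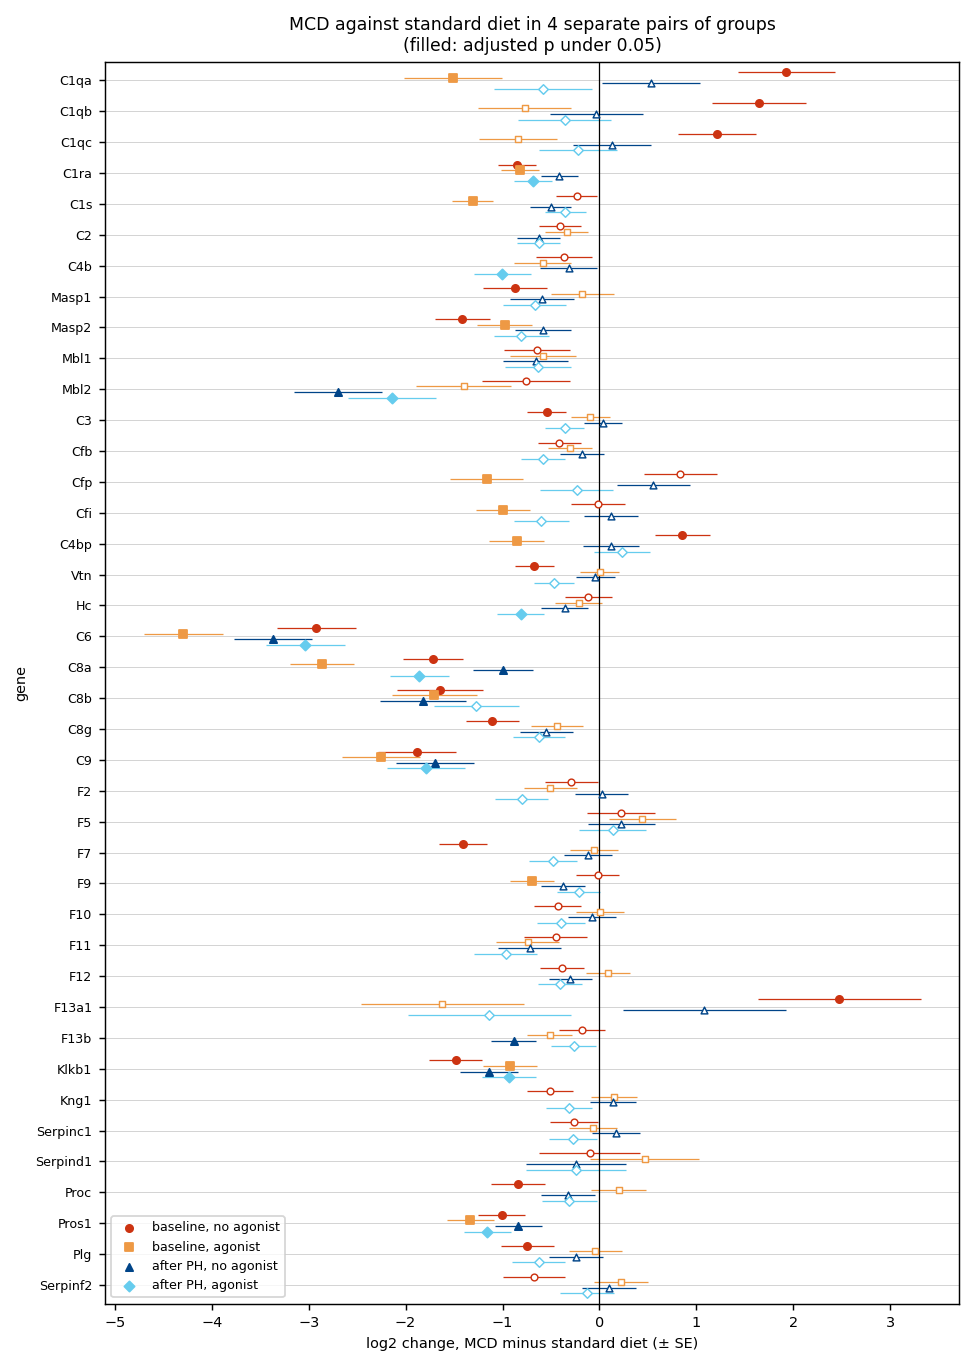
Points give the log2 change (MCD minus standard diet) of each of the 40 genes with its standard error, for the baseline pair without agonist (circles), the baseline pair with agonist (squares) and the pairs after partial hepatectomy without (triangles) and with agonist (diamonds); filled points have an adjusted p under 0.05. C6 lies farthest left in all 4 pairs, from -2.92 to -4.29.

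The member with the largest fall in each diet pair was C6, of the terminal pathway. The genes of that pathway encode the subunits of the membrane attack complex: C5 (from the gene Hc) and C6 start the assembly, the 3 chains of C8 anchor it and C9 closes the pore. Of 6 tested subunits, 5 fell with the MCD diet at baseline without agonist, and 4 fell in each of the other 3 diet comparisons. C6 stood at 5.74, 6.05, 5.87 and 6.42 on the standard diet and at 3.36, 2.77, 3.36 and 2.90 on the MCD diet, a change of -2.92 ± 0.41 (SE; adjusted p = 1.17e-05), which is 7.58-fold lower. With agonist at baseline it stood at 6.07, 6.60, 5.86 and 5.77 on the standard diet and at 2.11, 1.57, 0.90 and 2.55 on the MCD diet, 19.6-fold lower (-4.29 ± 0.41, adjusted p = 4.26e-08). After hepatectomy the standard-diet livers read 3.79, 5.74, 5.58 and 5.32 and the MCD livers 2.41, 1.84, 1.06 and 1.66 (-3.37 ± 0.41, adjusted p = 2.87e-06). The agonist-treated livers after hepatectomy read 5.22, 4.88, 5.17 and 3.69 on the standard diet and 2.27, 1.11, 1.18 and 2.26 on the MCD diet (-3.04 ± 0.41, adjusted p = 2.66e-05). The livers of the 2 diets did not overlap in any of these pairs. All 32 livers were well above background for C6, and its call in the 4 diet comparisons was kept under each alternative processing of the scanner files, with the submitters' columns placed at the matching arrays and with each liver left out; the columns as deposited exchange the groups.

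C8a, the alpha chain of C8, stood at 5.58 to 6.72 on the standard diet and at 4.03 to 4.85 on the MCD diet at baseline (-1.72 ± 0.31, adjusted p = 0.000237). With agonist the 3 retained standard-diet livers, at 6.65, 7.06 and 6.72, lay above the MCD livers at 4.46, 3.85, 3.53 and 3.95 (-2.86 ± 0.33, adjusted p = 1.78e-06). After hepatectomy the fall was -0.99 ± 0.31 without agonist (adjusted p = 0.0341) and -1.86 ± 0.31 with it (adjusted p = 0.000316); the former was lost when any of 6 single livers was left out and in 6 of 9 alternative settings, and a second C8a probe changed by -0.59 there (adjusted p = 0.25 over all probes). C8b, the beta chain, fell by 1.65 at baseline, by 1.70 with agonist and by 1.82 after hepatectomy, and changed by -1.27 ± 0.44 with agonist after hepatectomy, which did not pass. Its standard-diet livers after hepatectomy read 4.16, 6.87, 6.61 and 5.95, liver 1 lying within the MCD range of 3.75 to 4.38. The gamma chain C8g fell at baseline (-1.10 ± 0.27, adjusted p = 0.00382), its livers running from 8.37 to 9.002 on the standard diet and from 7.54 to 7.90 on the MCD diet; its changes in the other 3 diet comparisons, -0.44, -0.55 and -0.62, did not pass. A second C8g probe also fell with agonist at baseline, by 1.17 (adjusted p = 0.00804), so that this result depended on the probe read.

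C9, the pore-forming subunit, stood at 3.34, 3.17, 3.496 and 3.90 on the standard diet and at 1.93, 1.51, 1.89 and 1.04 on the MCD diet (-1.89 ± 0.40, adjusted p = 0.00118). With agonist the baseline livers read 3.56 to 4.29 against 1.34 to 1.67 (-2.26 ± 0.40, adjusted p = 0.00033). After hepatectomy it fell by 1.70 without agonist and by 1.79 with it; in the latter pair the MCD livers were spread from 0.29 to 2.67 and the highest reached past the lowest standard-diet liver at 2.62. Hc, which encodes C5, was called in 1 diet comparison, after hepatectomy with agonist (-0.81 ± 0.24, adjusted p = 0.0332), where 3 MCD livers read 6.84 to 7.32 and the other 7.81 against 7.75 to 8.40 on the standard diet. C7 read -6.42 to -2.70 in 31 livers and 2.33 in liver 1 of the standard diet with agonist after hepatectomy, so that a single liver stood far above the rest.

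**Figure D4:**
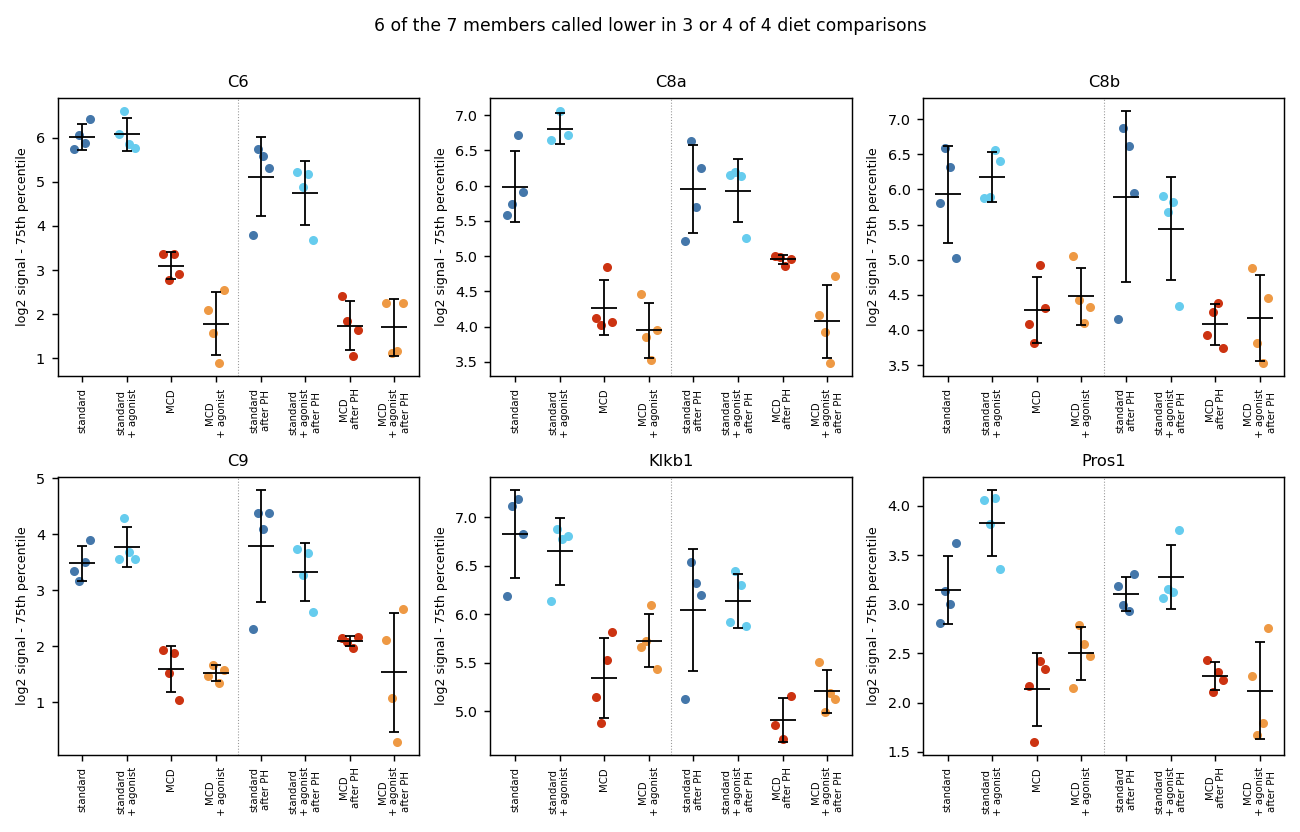
Points are single livers, with group mean and SD (black), of the log2 level of C6, C8a, C8b, C9, Klkb1 and Pros1 in the 8 groups; baseline is left of the dotted line. At baseline each MCD liver lies below each standard-diet liver of the same treatment, as with C6 at 2.77 to 3.36 against 5.74 to 6.42.

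The 250 bases before the start site are shown for the 5 members that fell in all 4 diet pairs and for C8b, the neighbour of C8a, so that the sequences can be read beside the shared fall. They come from RefSeq's promoters (GRCm38.p6), which matched 32 of the 41 members. Capitals mark matches, on either strand, to 4 searched motifs: GTTAAT, the half-site of HNF1; CAAAGTCC, a core of the HNF4 site; TTCNNNGAA, the STAT site; and TTGCNNAA, a C/EBP core. The sequences run on the strand of the gene, and the intervals are chr15:4726960-4727209 (+) for C6, chr4:104876399-104876648 (-) for C8a, chr4:104766067-104766316 (+) for C8b, chr15:6445096-6445345 (+) for C9, chr8:45294836-45295085 (-) for Klkb1 and chr16:62854057-62854306 (+) for Pros1.
C6: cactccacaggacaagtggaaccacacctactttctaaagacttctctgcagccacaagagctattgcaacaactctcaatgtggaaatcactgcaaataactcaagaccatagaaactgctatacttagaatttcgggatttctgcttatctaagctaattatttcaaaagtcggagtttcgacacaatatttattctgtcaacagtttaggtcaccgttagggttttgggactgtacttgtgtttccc
C8a: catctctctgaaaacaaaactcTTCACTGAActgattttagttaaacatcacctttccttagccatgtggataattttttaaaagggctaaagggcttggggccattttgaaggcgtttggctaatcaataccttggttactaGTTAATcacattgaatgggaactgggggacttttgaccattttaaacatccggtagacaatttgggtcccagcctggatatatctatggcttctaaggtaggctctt
C8b: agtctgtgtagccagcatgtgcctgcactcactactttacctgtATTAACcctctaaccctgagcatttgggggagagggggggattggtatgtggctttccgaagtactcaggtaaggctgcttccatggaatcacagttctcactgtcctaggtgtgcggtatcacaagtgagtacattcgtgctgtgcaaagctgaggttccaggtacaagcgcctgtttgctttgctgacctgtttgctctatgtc
C9: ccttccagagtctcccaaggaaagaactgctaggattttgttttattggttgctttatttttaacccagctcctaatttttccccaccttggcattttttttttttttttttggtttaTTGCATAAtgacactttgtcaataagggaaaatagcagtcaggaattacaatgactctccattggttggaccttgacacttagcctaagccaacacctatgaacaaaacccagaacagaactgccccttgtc
Klkb1: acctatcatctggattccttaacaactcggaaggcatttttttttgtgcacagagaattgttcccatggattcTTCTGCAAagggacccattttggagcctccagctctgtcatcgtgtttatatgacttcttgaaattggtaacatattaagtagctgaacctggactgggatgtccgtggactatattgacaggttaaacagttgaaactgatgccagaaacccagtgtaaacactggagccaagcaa
Pros1: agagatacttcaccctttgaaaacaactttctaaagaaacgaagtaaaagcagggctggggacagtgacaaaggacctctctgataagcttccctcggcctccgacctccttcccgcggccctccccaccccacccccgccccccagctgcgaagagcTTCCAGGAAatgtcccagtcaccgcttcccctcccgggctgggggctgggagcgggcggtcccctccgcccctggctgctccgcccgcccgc

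C6 held no match to any of the 4. C8a held TTCACTGAA from -228 to -220 and GTTAAT from -107 to -102, counted from the start site, C8b held ATTAAC from -206 to -201, C9 held TTGCATAA from -132 to -125, Klkb1 held TTCTGCAA from -177 to -170 and Pros1 held TTCCAGGAA from -92 to -84. Among all 32851 promoter windows of this length 6.43% held GTTAAT, 1.20% CAAAGTCC, 7.02% TTCNNNGAA and 9.56% TTGCNNAA. Of the 32 members with a promoter 9, 0, 5 and 6 held them in at least 1 of their windows. A gene can have several windows, so the counts of members and the shares of windows are not like for like. A match describes letters in the window and no binding was measured.

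Among the contact proteins, plasma prekallikrein (Klkb1), which activates factor XII and frees bradykinin, fell with the MCD diet in all 4 pairs. It stood at 6.18, 7.11, 7.19 and 6.83 on the standard diet and at 5.15, 4.88, 5.53 and 5.82 on the MCD diet at baseline (-1.48 ± 0.28, adjusted p = 0.000366). With agonist it fell by 0.92, after hepatectomy by 1.14 and after hepatectomy with agonist by 0.93. The 2 diets did not overlap at baseline, while after hepatectomy the lowest standard-diet liver, at 5.13, lay below the highest of 3 retained MCD livers, at 5.16. Kininogen (Kng1), the precursor of bradykinin, passed in none of the 4 by the probe read, with group means between 8.92 and 9.58. Its second probe was higher on the MCD diet after hepatectomy by 0.74 (adjusted p = 0.0211).

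Among the anticoagulants, protein S (Pros1), the cofactor of activated protein C, fell in all 4 pairs. It stood at 2.81, 3.13, 3.00 and 3.63 on the standard diet and at 2.17, 1.60, 2.42 and 2.34 on the MCD diet (-1.01 ± 0.24, adjusted p = 0.00318). With agonist it stood at 4.06, 3.82, 4.08 and 3.36 against 2.14, 2.79, 2.60 and 2.47 (-1.33 ± 0.24, adjusted p = 0.000432). It fell by 0.84 and 1.16 after hepatectomy without and with agonist, and the diets did not overlap in any pair. Protein C (Proc), whose active form cuts factors Va and VIIIa, fell at baseline (-0.84 ± 0.28, adjusted p = 0.0276), though the lowest standard-diet liver, at 8.20, lay under the highest MCD liver, at 8.23. That Proc call was kept in 4 of 9 alternative settings and with 4 of 8 livers left out. Antithrombin (Serpinc1), the main inhibitor of thrombin, and heparin cofactor II (Serpind1) passed in no comparison; their group means ran from 8.61 to 9.13 and from 6.81 to 7.28, and Serpind1 was the more uneven between livers of a group, with a pooled SD of 0.840.

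Of the 9 procoagulant genes, F7 fell and F13a1 rose with the MCD diet at baseline, and at most 1 passed in each of the other 3 pairs. Factor VII (F7), which starts coagulation with tissue factor, stood at 4.87, 5.44, 5.12 and 4.93 on the standard diet and at 3.78, 3.57, 3.63 and 3.73 on the MCD diet (-1.41 ± 0.25, adjusted p = 0.000184), without overlap. The change of F7 was -0.06 with agonist, -0.11 after hepatectomy and -0.48 with both, none of which passed. F13a1 changed by 2.47 at baseline, but by 0.57 with normexp background correction, where it did not pass (adjusted p = 0.413). Its call was kept with only 2 of 8 livers left out, and most standard-diet livers were not well above background for it. Factor IX (F9), a vitamin K-dependent protease, fell with agonist at baseline (-0.70 ± 0.23, adjusted p = 0.0338), and the B subunit of factor XIII (F13b), the carrier of the clot-linking enzyme, fell after hepatectomy (-0.88 ± 0.23, adjusted p = 0.0134); in both the livers of the 2 diets overlapped. By the probes read, prothrombin (F2), factor V (F5), factor X (F10), factor XI (F11) and factor XII (F12) passed in no comparison. A second F5 probe passed in 3, at 0.69 for diet with agonist at baseline (adjusted p = 0.0349), at 0.76 for diet after hepatectomy (adjusted p = 0.0267) and at -0.73 for hepatectomy on the standard diet (adjusted p = 0.0309). A second F10 probe passed for the agonist on the standard diet at baseline (-1.69, adjusted p = 0.0474). Group means of the probes read ran from 7.59 to 8.47 for F2, from 5.24 to 6.11 for F5, from 7.56 to 8.37 for F10, from 3.43 to 4.92 for F11 and from 7.06 to 7.56 for F12. In fibrinolysis, plasminogen (Plg), the precursor of plasmin, fell at baseline (-0.75 ± 0.27, adjusted p = 0.0446) with overlapping livers, and antiplasmin (Serpinf2), its inhibitor, changed by -0.67 ± 0.32 over 3 retained livers a group and did not pass. The Plg call was kept in 3 of 9 alternative settings and with 2 of 8 livers left out.

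The lectin pathway starts when mannose-binding lectins meet sugars on a microbe and their partner proteases cut C4 and C2. The lectin Mbl2 fell with the MCD diet after hepatectomy: the standard-diet livers read 7.07, 7.79, 8.19 and 7.97 and the MCD livers 4.66, 4.80, 5.23 and 5.54, which is 6.49-fold lower (-2.70 ± 0.45, adjusted p = 0.000263). With agonist after hepatectomy they read 7.99, 8.77, 8.23 and 7.17 against 6.70, 6.29, 4.23 and 6.38 (-2.14 ± 0.45, adjusted p = 0.00324). Neither pair overlapped. At baseline Mbl2 changed by -0.76 ± 0.45 without agonist and by -1.40 ± 0.49 with it, over 3 retained MCD livers, and neither passed. The lectin Mbl1 passed in no comparison, with group means from 4.18 to 5.39. Among the proteases, Masp2 stood at 6.48 to 6.73 on the standard diet and at 4.59 to 5.65 on the MCD diet at baseline (-1.41 ± 0.29, adjusted p = 0.000739) and fell by 0.98 with agonist. A second probe for the same Masp2 transcript record changed by -1.69 in the former pair (adjusted p = 0.000103 over all probes). With agonist that probe changed by -0.62 and did not pass (adjusted p = 0.143). A probe for another Masp2 transcript record changed by -0.17 in the pair without agonist, so the probes of this gene differed. Masp1 fell at baseline by 0.87 (adjusted p = 0.0499) with overlapping livers. That Masp1 call was kept in 1 of 9 alternative settings and with 3 of 8 livers left out. Its other 2 tested probes changed by -1.07 and 0.72.

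The classical pathway starts with C1, in which C1q recognises its target and the proteases C1r and C1s cut C4 and C2. C1qa stood at 1.32, 2.06, 1.35 and 1.29 on the standard diet and at 4.23, 2.70, 3.45 and 3.36 on the MCD diet at baseline (1.93 ± 0.50, adjusted p = 0.00592), without overlap. C1qb rose by 1.65 and C1qc by 1.21 in the same pair, the C1qc call being kept with 5 of 8 livers left out. With agonist the order was the other way: C1qa read 3.59, 3.49, 3.85 and 2.66 on the standard diet and 2.21, 1.97, 0.64 and 2.73 on the MCD diet (-1.51 ± 0.50, adjusted p = 0.04), with the highest MCD liver just above the lowest standard-diet one. That C1qa call was kept in 4 of 9 alternative settings and with 2 of 8 livers left out. C1qb and C1qc changed by -0.77 and -0.84 in the pair with agonist and did not pass. After hepatectomy no C1q chain passed between diets.

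Kupffer cell markers, those of the resident macrophages of the liver, moved with the C1q chains. Their mean over 7 of 8 listed genes was 1.94 to 2.63 in standard-diet livers, 2.76 to 4.20 on the MCD diet, 3.47 to 3.80 on the standard diet with agonist and 1.97 to 2.87 on the MCD diet with agonist. Of these 7, 4 rose with the MCD diet at baseline and 4 fell with it under agonist; Clec4f, a defining marker, averaged 3.55, 4.84, 5.04 and 3.60 in those 4 groups. Markers of recruited macrophages ran from -2.03 to -1.57 on the standard diet and from 0.23 to 1.34 on the MCD diet. Of these 11 markers, 8 had risen and 1 had fallen. With agonist their mean ran from -1.12 to -0.75 on the standard diet and from -1.33 to 0.32 on the MCD diet. The group means with agonist were -0.93 and -0.38, so the order of the C1q chains was not shared there. The part of these cells in the C1q values was not tested.

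**Figure D5:**
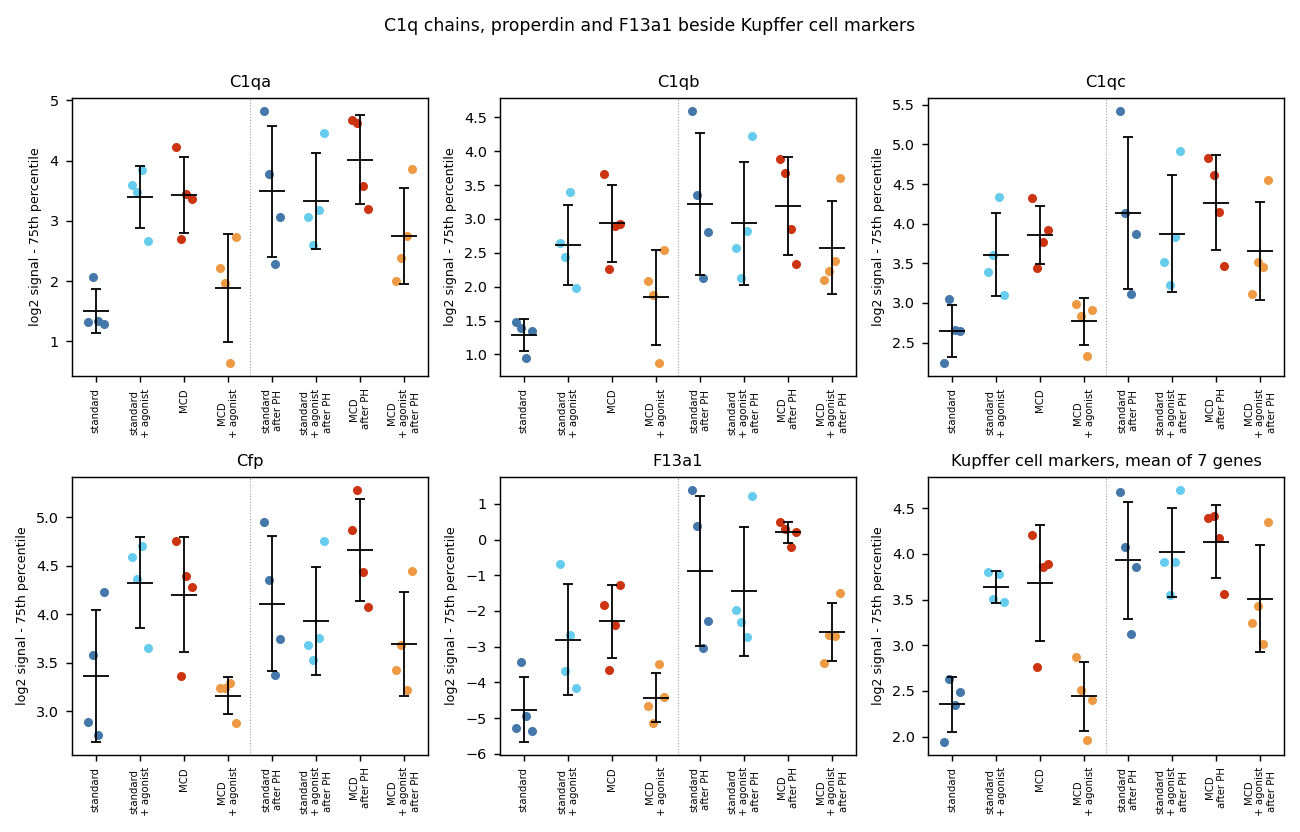
Points are single livers, with group mean and SD (black), of the log2 level of C1qa, C1qb, C1qc, Cfp and F13a1 in the 8 groups, and in the last panel the mean of 7 Kupffer cell markers. At baseline the standard diet and the MCD diet with agonist lie low and the other 2 groups high, as with C1qa means of 1.51 and 1.89 against 3.44 and 3.40.

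C1ra, which encodes C1r, fell in 3 diet pairs: it stood at 6.24 to 6.72 on the standard diet and at 5.48 to 5.62 on the MCD diet at baseline (-0.85 ± 0.19, adjusted p = 0.00195), and fell by 0.82 with agonist and by 0.68 after hepatectomy with agonist. A second C1ra probe passed in none of these pairs, at -0.60, -0.57 and -0.54 (adjusted p = 0.247, 0.294 and 0.377), and with the mean over probes the pairs with agonist no longer passed. That probe was lower with agonist at baseline on the standard diet (-1.29, adjusted p = 0.0407) and on the MCD diet (-1.26, adjusted p = 0.0187), where the probe read did not pass. C1s fell with agonist at baseline, from 7.25 to 7.90 on the standard diet to 5.81 to 6.41 on the MCD diet (-1.31 ± 0.21, adjusted p = 0.000121). C4b, a chain of the C3 convertase, fell after hepatectomy with agonist (-1.002 ± 0.29, adjusted p = 0.03). C2, its protease partner, passed in no diet pair, with changes from -0.63 to -0.34. C1ra, C1s and C4b have close relatives in the mouse genome, and whether their probes also bind those was not checked.

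C3, on which all 3 pathways converge, had group means from 9.31 to 10.11. It fell at baseline with the MCD diet (-0.54 ± 0.20, adjusted p = 0.0421), but changed by 0.14 under quantile normalization, so its direction depended on the scaling. A second C3 probe fell by 0.95 in that pair (adjusted p = 0.00163). That probe also passed where the probe read did not. It was lower after hepatectomy on the standard diet (-1.18, adjusted p = 0.000749) and on the MCD diet with agonist (-1.12, adjusted p = 0.00194). It was higher with agonist on the MCD diet at baseline (0.63, adjusted p = 0.0476), and its baseline interaction of diet and agonist was 1.07 (adjusted p = 0.021). Factor B (Cfb), the protease of the alternative convertase, passed in no comparison. Properdin (Cfp), which stabilises that convertase, fell with agonist at baseline, from 4.59, 4.37, 4.70 and 3.65 on the standard diet to 3.24, 3.24, 3.29 and 2.88 on the MCD diet (-1.16 ± 0.38, adjusted p = 0.0338). Among the regulators, C4bp, which restrains the classical convertase, rose at baseline by 0.86 and fell with agonist by 0.85, the latter call being kept in 5 of 9 alternative settings and with 4 of 8 livers left out, while factor I (Cfi), which degrades C3b, fell with agonist by 0.99. Vitronectin (Vtn), which blocks the terminal complex, fell at baseline by 0.67.

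The agonist went with few changes in these genes. On the standard diet at baseline 3 of 40 members rose and none fell, beside 3.33% of all genes up and 3.2% down. Factor IX stood at 3.28, 3.35, 3.51 and 3.08 without and at 4.68, 4.39, 5.01 and 4.34 with agonist (1.30 ± 0.23, adjusted p = 0.00134), without overlap, and this call was kept in each alternative tried. Cfi rose by 1.06 and C1qa by 1.89. Leaving out standard-diet liver 1 or agonist liver 1 left 1 call.

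On the MCD diet at baseline 1 member rose and 3 fell with agonist, beside 8.96% up and 4.37% down. F7 rose by 0.90 (SE 0.25, adjusted p = 0.0173), from 3.57 to 3.78 without agonist to 3.97 to 4.81 with it. C6 fell by 1.32 (adjusted p = 0.0304), C1qa by 1.55 and C4bp by 0.91, the last 2 with overlapping livers. Leaving out MCD liver 1 or 4 left 1 call and leaving out agonist-treated MCD liver 3 left 0. Of the 7 Kupffer cell markers, 4 rose with agonist on the standard diet and 5 fell on the MCD diet; their part in the C1qa values was not tested.

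After hepatectomy none of the 40 members was called for the agonist on either diet by limma's test. Of all genes 0.0092% were called up and 0% down on the standard diet, and 0.175% up and 0.221% down on the MCD diet. At an unadjusted p under 0.05 there were 0 members on the standard diet and 9 on the MCD diet. The largest change on the MCD diet was in F13a1, at -2.78 ± 0.84 (adjusted p = 0.131).

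Partial hepatectomy was compared with baseline 2 weeks after surgery, across slides and scanners. The operated groups had also spent those 2 weeks longer on their diet and agonist, and no unoperated group was sampled at that time. Surgery and the added time on the regimen therefore cannot be told apart. On the standard diet 4 members rose and 1 fell, beside 6.22% of all genes up and 7.51% down. F13a1, the catalytic subunit of factor XIII, stood at -5.29, -3.43, -4.95 and -5.37 at baseline, where 1 of 4 livers was well above background, and at 1.40, 0.37, -3.03 and -2.28 after surgery (3.88 ± 0.84, adjusted p = 0.00328). The size of that change is not settled, since most baseline livers were not well above background and it ran from 1.54 to 4.59 over the alternatives, in which it stayed called. C1qa rose by 1.98, C1qb by 1.93 and C1qc by 1.49, and F7 fell by 0.85. Kupffer cell markers, of which 6 of 7 rose, ran from 3.12 to 4.67 after surgery, and recruited macrophage markers, of which 7 of 11 rose, from -1.13 to 2.84. Without liver 1 after hepatectomy 3 calls were left, and the C1q chains were not among them; C1qa then had an adjusted p of 0.0601.

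In each of the other 3 settings 3 members fell and none rose, a split that depended on the processing. With normexp background correction 1 rose and 7 fell on the standard diet with agonist, and 3 rose and 8 fell on the MCD diet with agonist, where a fit of only the groups compared gave 1 up and 0 down. On the MCD diet (6.44% of all genes up, 3.02% down) Mbl2 went from 6.52, 6.83, 7.36 and 7.06 at baseline to 4.66, 4.80, 5.23 and 5.54 (-1.89 ± 0.45, adjusted p = 0.00826), C6 fell by 1.36 and F13b by 0.77, beside 4 of 8 neutrophil markers higher, whose part was not tested. On the standard diet with agonist (2.91% up, 4.42% down) C6 fell by 1.34, F9 by 0.77 and C2 by 0.72, and no member was called without baseline liver 1 or 3 or without liver 2, 3 or 4 after surgery, and 1 without baseline liver 2. On the MCD diet with agonist (3.68% up, 6.45% down) C2 fell by 1.01 (adjusted p = 0.00513), F7 by 0.85 and Vtn by 0.75, beside 3 of 9 hepatocyte markers lower. On the MCD diet without agonist 1 call was left without baseline liver 1, 3 or 4 or without liver 2 or 3 after surgery, and with agonist 6 were made without liver 1 after surgery and 1 without liver 2 or 3. In that last group 4 of 5 pancreatic acinar markers were higher than at baseline, with liver means from -2.96 to 0.62.

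Whether the diet difference itself varied with agonist was tested by an interaction, which cancels additive effects of slide and row. At baseline 7 members had a lower and 1 a higher diet change with agonist than without, beside 4.93% and 6.1% of all genes. Median scaling gave 11 lower and 0 higher, beside 2513 genes lower and 260 higher, and normexp gave 7 lower and 0 higher. C1qa (-3.44 ± 0.71, adjusted p = 0.0033), C1qb (-2.42), C1qc (-2.06), Cfp (-1.998), F13a1 (-4.09 ± 1.19), C4bp (-1.71) and C1s (-1.07) were the lower ones, and F7 (1.35 ± 0.35, adjusted p = 0.0137) the higher one. The F7 call was lost with normexp and with median scaling. A second F7 probe had an interaction of 1.21 and did not pass (adjusted p = 0.0607 over all probes). For F13a1 the interaction was -0.95 with normexp, where it did not pass (adjusted p = 0.374), and it was also lost without MCD liver 4 or without liver 1 of the standard diet with agonist; the C1s call was lost with normexp and without MCD liver 1 or that same liver. Of the 7 Kupffer cell markers 5 had a lower interaction. C6, with the largest diet change under agonist, had an interaction of -1.37 ± 0.57 (adjusted p = 0.117). After hepatectomy none of the 40 passed by limma's test (0% of all genes up, 0.0046% down) and 1 had an unadjusted p under 0.05.

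Of 51 other complement and coagulation genes listed, 45 were tested. With the MCD diet at baseline 5 rose and 11 fell, beside 10.8% of all genes rising and 15% falling. With agonist 1 rose and 12 fell, beside 8.18% rising and 6.97% falling. After hepatectomy 3 rose and 2 fell, beside 5.62% rising and 5.83% falling. With both, none rose and 3 fell, beside 4.39% rising and 3.91% falling. Protease nexin 1 (Serpine2), a thrombin inhibitor, fell in all 4 pairs, by 2.40, 2.02, 2.97 and 2.05. Factor D (Cfd), the protease that cuts factor B, fell by 4.33 at baseline, and the fibrinogen chain Fga by 1.25. The C5a receptor C5ar1 rose by 2.34, the urokinase receptor Plaur by 2.15 and thrombomodulin (Thbd) by 1.63. With agonist at baseline complement receptor 2 (Cr2) fell by 2.10 and Tfpi2 by 1.92, and tissue factor (F3) rose by 1.32.

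Several members are neighbours on the chromosome, by the probe positions in the array files (mm9). The probes of C8b and C8a lay 11.3 kb apart on chromosome 4 and both genes fell in 3 of the diet pairs. F11 and Klkb1 lay 28.2 kb apart on chromosome 8, where Klkb1 fell in 4 pairs and F11 changed by -0.45, -0.74, -0.72 and -0.97 without passing. F7 and F10 lay 20.4 kb apart on the same chromosome, and F10 did not pass where F7 fell. The 3 C1q probes lay within neighbouring stretches of chromosome 4, 9.13 kb between C1qb and C1qc and 6.58 kb between C1qc and C1qa.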

How the data were processed

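Liver RNA was labelled with Cy3 and hybridised to 1-colour Agilent arrays, 1 per liver, 4 livers in each of 8 groups; groups follow the labels. The deposited scanner files hold processed signal intensities, background-subtracted by Agilent Feature Extraction 10.7.3.1 per the file headers. The submitters' table holds log2 values deposited by the authors; its scale and normalization are not given in the sources used here, its column medians were 6.53 to 6.55 at baseline and 7.05 to 7.06 after hepatectomy, and limma is named in the submitters' processing notes without a version.

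Control spots and 5010 outlier spots (0.264%) were left out, log2 signals were centred on each array's 75th percentile, and replicate spots were combined by their mean. Probes entered the test if some group had all 4 of its livers well above background, and a gene was read from its probe with the highest mean; 5877 genes had several. One model of group means was fitted over the 32 arrays (limma 3.58.1, R 4.3.3) with Benjamini-Hochberg adjustment over 21730 genes. On simulated data for the baseline diet comparison (21730 genes), 73% of 4-fold and 25% of 2-fold changes were recovered. The simulation held far fewer changed genes than the 2343 up and 3270 down called in the data. Its adjusted threshold was therefore stricter, and these rates need not hold for the data. The number of arrays limits the precision. In each comparison at least 1 pair of same-numbered livers had a correlation of deviations of 0.0810 or lower. The main fit used no block. Liver number coincided with the position of the array in its slide row in every group, so the 2 cannot be told apart. Alternatives were outlier spots kept, normexp background correction (offset 50), median and quantile scaling, no filter, the mean over probes, only the groups compared, a replicate block, each liver left out and the submitters' table. The members and lists were chosen with earlier results of these data known. Named were, per comparison, up to 8 called members and 4 other complement or coagulation genes per direction with the largest change. Some of the latter are not reported here.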

Additional observations from a re-analysis of the deposited data

Results flagged for a closer look

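In 20 of 314 groups of 4 livers tested, 1 liver stood apart from the other 3 by Dixon's criterion; chance gives about 1 in 20, or 15.7. Of these, 5 were liver 4 of the standard diet with agonist after hepatectomy: C4bp at 7.75, C8a at 5.25, C8b at 4.35, C8g at 7.58 and Pros1 at 3.75. Liver 1 of the standard diet after hepatectomy stood apart for Masp2 (5.18) and C9 (2.30), and liver 3 of the MCD diet with agonist after hepatectomy for Mbl2 (4.23) and F9 (3.34). On the standard diet at baseline liver 1 stood apart for Kng1 (9.93) and Serpind1 (5.597) and liver 2 for C1qa (2.06). With agonist on the standard diet they were Klkb1 at 6.14 in liver 1, C9 at 4.29 in liver 2 and F10 at 7.29 in liver 4. On the MCD diet it was C8a at 4.85 in liver 3, and with agonist F7 at 3.97 in liver 2 and Cfp at 2.88 in liver 4. After hepatectomy on the MCD diet it was C8g at 7.91 in liver 1 and F12 at 7.34 in liver 4.

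The diet change at baseline differed with agonist by the interaction test for 8 members: C1qa (-3.44), C1qb (-2.42), C1qc (-2.06), C1s (-1.07), Cfp (-1.998), C4bp (-1.71), F7 (1.35) and F13a1 (-4.09). The F7 call was lost with normexp and with median scaling, and F13a1 was at -0.95 with normexp (adjusted p = 0.374). A second F7 probe, at 1.21, did not pass (adjusted p = 0.0607 over all probes).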

How the results depend on the processing

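Of 80 calls of members, 27 were kept with every liver left out and in every alternative other than the submitters' columns as deposited, for which only counts were made; of 1410 alternative values 1107 kept direction and side of the threshold, 299 lost the threshold and 4 reversed. The reversed ones were in the baseline diet comparison: C3 at 0.137 with quantile normalization, and with the submitters' columns placed at the array each matches C3 at 0.196, Proc at 0.245 and Plg at 0.259. Counts of members called beyond 1.5 times the reported ones were as follows. Normexp gave 6 and 10 for agonist at baseline on the standard and MCD diets, and 10, 8 and 11 for hepatectomy on the standard diet, on the standard diet with agonist and on the MCD diet with agonist. Median scaling gave 13 for diet at baseline, 5 for diet after hepatectomy, 7 for agonist on the MCD diet at baseline, all lower, and 1 and 1 for hepatectomy with agonist on the standard and MCD diets. Quantile normalization gave 14 for diet with agonist after hepatectomy and 0 for hepatectomy on the standard diet with agonist. Without the filter those 2 were 5 and 0, and hepatectomy on the MCD diet 1. The mean over probes gave 5 for agonist on the standard diet and 8 for hepatectomy on the standard diet. Fits of only the groups compared gave 7 and 4 for diet with agonist at baseline and diet after hepatectomy, 1 for agonist on the MCD diet after hepatectomy, and 3, 1 and 1 for hepatectomy on the standard diet, the standard diet with agonist and the MCD diet with agonist. The submitters' columns as deposited gave 1, 6, 0 and 0 for the 4 diet and 14, 8, 10 and 14 for the 4 agonist comparisons; placed at the matching arrays they gave 8 for diet with agonist at baseline, 14 for diet with agonist after hepatectomy and 1 for agonist on the standard diet. The cause was not tested.

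Leaving out 1 liver gave 13 to 18, 9 to 13, 5 to 10 and 5 to 12 members for the 4 diet comparisons, 1 to 4, 0 to 5, 0 to 0 and 0 to 0 for agonist, 3 to 7, 1 to 3, 0 to 3 and 1 to 6 for hepatectomy, and 6 to 10 and 0 to 0 for the interactions. Same-numbered livers had correlations of deviations from -0.207 to 0.443, and each liver matched its own number best only in the diet comparison with agonist at baseline and in the agonist comparison on the MCD diet at baseline. With the replicate block 19, 14, 8 and 9 members were called for diet, 3, 4, 0 and 0 for agonist, 6, 3, 2 and 3 for hepatectomy, and 8 and 0 for the interactions. The block lost the calls of Masp1 for diet at baseline, C4bp for diet with agonist at baseline and C6 for hepatectomy on the standard diet with agonist. Few arrays and dim signal limit F13a1 and C7 most.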
